A study of Rattus norvegicus with 18 samples.

Results

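Rat inner medullary collecting duct cells kept in primary culture at 600 mosmol/kg were compared with the same kind of cells kept at 300 mosmol/kg, without any osmotic challenge in either group. The comparison rests on the 6 of the 18 arrays that carry these labels, 3 per group, and covers all 28328 features of the array. The 300 culture is near the osmolality of plasma, and the 600 culture is hypertonic. Both groups were primary cultures from the renal inner medulla of rats, and neither received cyclosporin A. Another group of 3 arrays serves as a second reference: 300 culture cells given 24 h at 600 mosmol/kg before harvest (the 600 challenge). The remaining 9 arrays were 600 culture cells given 24 h at 900 mosmol/kg (the 900 challenge), and both challenges in the presence of 5 µM cyclosporin A. No label gives the strain, age or number of the rats, how long cells were held at 300 or 600 mosmol/kg, or whether the cultures were started from the same cell preparation, so osmolality and preparation cannot be told apart. Whether the 3 arrays of each group stand for different rats or dishes is not labelled, and p-values therefore measure only how these arrays vary, which can be technical variation.

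The inner medullary collecting duct is the last segment of the kidney tubule and takes up water and urea into an interstitium that is normally far more concentrated than plasma. Vasopressin binds its V2 receptor on principal cells, raises cyclic AMP, and brings the water channel aquaporin 2 to the apical membrane, while water leaves through aquaporins 3 and 4 and urea crosses through UT-A transporters. Cells in this environment balance the outside salt with organic osmolytes such as sorbitol, myo-inositol, betaine, taurine and glycerophosphocholine, and the transcription factor NFAT5 drives many of the genes that accumulate them. The comparison of the cultures asks how the transcriptome of cells living at 600 mosmol/kg differs from that of cells living at 300 mosmol/kg, and the comparison with the 600 challenge asks which of these differences separate the 600 culture from cells that met the same osmolality for 24 h.

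Levels are the authors' deposited logarithms, and no source used here names their base. Differences are therefore in log units, 600 culture minus 300 culture. A step of 1 unit equals 2-fold in base 2, or 2.72-fold in natural logs. Medians of the 6 arrays lay between 3.629 and 3.649, and the lower quartile of their values was 2.60. Levels under that quartile are not shown to stand above background. Within a group the SD over 3 arrays had a median of 0.108 in the 300 culture and 0.116 in the 600 culture. The second principal component of the 18 arrays, with 12.7% of the variance, placed the 6 arrays of both unchallenged cultures between 20.62 and 23.46 and the 3 arrays of the 600 challenge between -19.71 and -18.72. On the first component the 300 culture scored 40.49 to 42.21 and the 600 culture -12.68 to -8.42, so the arrays of each culture lay close together and the cultures lay far apart.

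In limma's moderated test on all 18 arrays with Benjamini-Hochberg adjustment, 4863 of the 28328 features (17.2%) differed between the cultures at an adjusted p under 0.05. Of these, 2360 (8.33% of all features) were higher in the 600 culture and 2503 (8.84%) were lower. A difference of at least 1 log unit was reached by 323 of the higher and 352 of the lower features. The median difference over all features was 0.0023. The deposited arrays had nearly equal medians and their normalization is not given, so this value cannot show whether RNA as a whole shifted. Counted by gene, with the brightest feature standing for each of 14499 symbols, 1642 genes (11.3%) were higher and 1784 (12.3%) were lower. These shares stand beside the counts of the gene groups below. Lists and their members were chosen with earlier results of these data known, so their counts are descriptions, and no list was tested as a set. Calls were rarer among dim features: in the lowest quartile by level 1.6% of features were called higher and 2.9% lower, against 16.3% and 14.9% in the highest.

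**Figure D1:**
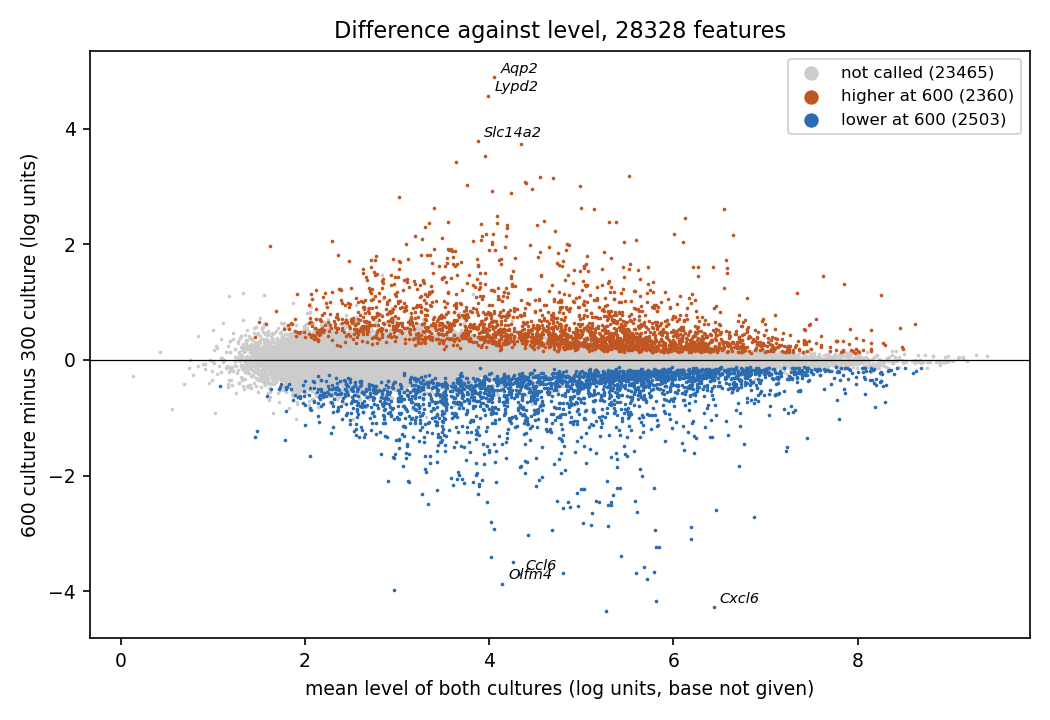
Each point is 1 feature. The x axis is the mean level of the 300 and 600 cultures and the y axis the 600 culture minus the 300 culture, both in log units of unstated base. Orange points were higher and blue points lower in the 600 culture at an adjusted p under 0.05 (limma), and grey points were not called. Labels mark 6 named genes, 3 at each extreme. The largest rise is Aqp2 at 4.89 and the largest fall of a named gene is Cxcl6 at -4.28.

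The largest rise of all was in Aqp2, the vasopressin-regulated water channel. Its 3 arrays of the 300 culture read 1.62, 1.72 and 1.49, and its 3 arrays of the 600 culture read 6.84, 6.32 and 6.33. All 3 values of the 300 culture lay under the lower quartile of the arrays, and all 3 of the 600 culture lay far above it. The difference was 4.89 ± 0.14 (SE, limma adjusted p = 5.84e-12), and no fold is given because the 300 culture readings are not shown to stand above background. Slc14a2, the gene of the UT-A urea transporters, went from 2.06, 1.93 and 1.97 to 6.03, 5.67 and 5.61, a difference of 3.78 ± 0.11 (adjusted p = 7.94e-12). Aqp2 and Slc14a2 were thus at low readings in the 300 culture and at high readings in every array of the 600 culture.

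The largest fall of a named gene was in Cxcl6, a chemokine that attracts neutrophils. It read 8.65, 8.56 and 8.52 in the 300 culture and 4.19, 4.59 and 4.11 in the 600 culture (difference -4.28 ± 0.12, adjusted p = 5.84e-12), which is 19.4-fold lower with base 2 and 72.0-fold lower with a natural log. Olfm4, which encodes the secreted glycoprotein olfactomedin 4, fell by 3.87 ± 0.12. The macrophage and neutrophil genes and cytokines Ccl6 (-3.70), Il1b (-3.49), Rac2 (-3.41), Csf3 (-3.39), Il1a (-3.24), Vsig4 (-3.24) and Cxcl2 (-2.93) followed. Also among the 15 largest falls were Dlgap5l2 (-3.69 on 1 of its 3 features, -3.67 and -2.51 on the others), Or2a25, named for an olfactory receptor (-3.03), the nicotinic acid receptor gene Hcar2 (-2.93), the transferrin gene Tf (-2.87), Prnd (-2.85) and the keratin gene Krt17 (-2.64). Olfm4, Ccl6, Il1b, Rac2 and Hcar2 averaged under the lower quartile of 2.60 in the 600 culture.

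The other genes among the 15 largest rises included membrane transport genes, transcription regulators and secreted proteins. Fxyd4, a small regulator of the sodium pump in the collecting duct, rose by 3.18 ± 0.13, Aqp3, the basolateral water channel, by 3.06 ± 0.15, and Elf5, an epithelial transcription factor of the ETS family, by 3.15 ± 0.12. Serpina3n, a secreted protease inhibitor, rose by 3.74 ± 0.19, the lipoxygenase gene Alox15b by 3.42 ± 0.14, and Padi1, whose enzyme converts arginine to citrulline in proteins, by 3.08 ± 0.09. Lypd2 (4.57), Klhdc8a (3.53), the antiviral gene Mx1 (3.17), the small GTPase gene Rrad (2.92), the transporter gene Slc45a3 (2.82), Prss35 (2.64) and Mal, a proteolipid of apical transport (2.61), complete them. Lypd2, Serpina3n, Klhdc8a, Alox15b, Rrad, Slc45a3 and Prss35 averaged under the lower quartile of 2.60 in the 300 culture, as did Aqp2 and Slc14a2. The sizes of these rises thus start from readings not shown to stand above background. The 3 values of each culture did not overlap in any of the 30 genes with the largest rises and falls, which the rule that chose them required. Each of the 30 kept its direction and its call under every alternative setting applied to single features. These settings refit the arrays from which the 30 were chosen as the largest called differences, so this is no independent check.

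**Figure D2:**
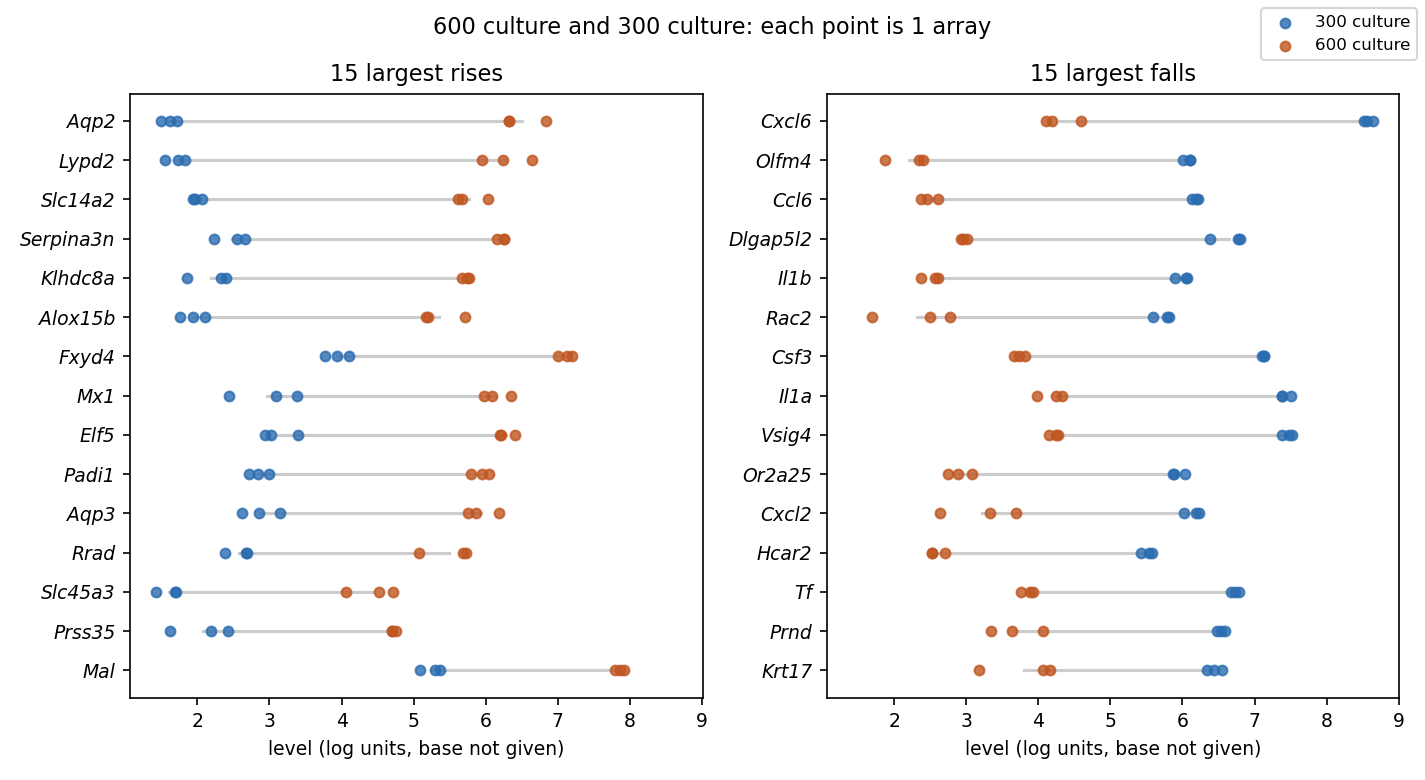
Levels in log units of unstated base (x axis) of the 15 named genes that rose most (left) and the 15 that fell most (right), with 1 point per array, blue for the 300 culture and orange for the 600 culture, and a grey line between the group means. Aqp2 runs from about 1.61 to 6.50 and Cxcl6 from 8.58 to 4.30, and in every row the points of both cultures stand apart.

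Genes that define the principal cell and its urine concentrating function rose together. Of 27 measured genes, 19 were higher in the 600 culture, 1 was lower and 7 were not called, with a median difference of 0.70 against -0.0043 over all genes. The V2 vasopressin receptor gene Avpr2 read 3.30, 3.26 and 3.50 in the 300 culture and 5.77, 5.63 and 5.65 in the 600 culture (2.33 ± 0.11, adjusted p = 1.38e-09). The water channel gene Aqp4 rose by 2.40 ± 0.15, the transcription factor genes Gata2 and Gata3 by 1.90 ± 0.16 and 1.08 ± 0.05, the mineralocorticoid receptor gene Nr3c2 by 1.39 ± 0.18, the sodium channel subunit gene Scnn1a by 1.27 ± 0.08 and the kidney cadherin gene Cdh16 by 1.16 ± 0.04. The exception was Stc1, which encodes the hormone stanniocalcin 1 (-0.96 ± 0.17). Sodium channel subunits Scnn1b and Scnn1g were not called and read under 2.60 in both cultures, at 1.83 and 2.26 in the 300 culture and 2.27 and 2.43 in the 600 culture. Scnn1b had an adjusted p of 0.00862 without the third array of the 300 culture.

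Label and markers of the collecting duct did not match equally in both cultures. In the 300 culture Aqp2 (1.61 ± 0.12), Slc14a2 (1.99 ± 0.07) and Scnn1a (2.50 ± 0.04) lay under the lower quartile (SD, n = 3). General epithelial genes were well measured there: Krt8 read 8.13 ± 0.01, Krt18 8.25 ± 0.02, Epcam 7.97 ± 0.01 and Cdh1 7.33 ± 0.04, and the duct genes Ehf, Wnt7b and Gata3 read 6.84, 7.30 and 6.27. Ehf (-0.06 ± 0.05, adjusted p = 0.49), an epithelial transcription factor of the same family as Elf5, and Cdh1 (-0.03 ± 0.05, adjusted p = 0.81) were not called. In bulk RNA, fewer cells of a type and less RNA per cell cannot be told apart.

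Genes of the loop of Henle, a neighbouring tubule segment, were higher as well. Of 9 measured markers, 6 were higher, 1 was lower and 2 were not called, with a median of 1.92. They included the diuretic-sensitive cotransporter gene Slc12a1 (2.62 ± 0.25 to 4.54 ± 0.13), the chloride channel subunit gene Bsnd (1.26 ± 0.31 to 3.33 ± 0.10), the tight junction genes Cldn10 (1.99), Cldn16 (0.68) and Cldn19 (2.23), and the water channel gene Aqp1 (2.45 ± 0.08), which thin limbs and vessels also express. Umod, the defining product of the thick ascending limb, read 2.69 ± 0.08 and 2.61 ± 0.15 and was not called. The mean level of the 9 markers per array ran from 3.33 to 3.52 in the 300 culture and from 4.51 to 4.65 in the 600 culture, and the part of such cells in the rise of the principal cell genes was not tested. Cldn14 was lower (-0.84), but not in the fit of the 6 arrays alone (adjusted p = 0.0551).

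Of 13 intercalated cell markers, 8 lay under the lower quartile in both cultures, among them the proton pump subunit genes Atp6v1b1 and Atp6v0d2 and the transcription factor gene Foxi1 (1.71 and 1.67). Slc26a4, which encodes the chloride and bicarbonate exchanger pendrin, stood apart from these: it read 6.23, 6.11 and 6.12 in the 300 culture and 3.73, 3.56 and 3.55 in the 600 culture (-2.54 ± 0.06, adjusted p = 1.54e-12). Car2, the carbonic anhydrase of both collecting duct cell types, rose by 1.59 ± 0.06 and the receptor kinase gene Kit by 0.64 ± 0.05. Slc4a1 and Rhbg made up the 4 higher members, which were 2 without the first array of either culture and in the fit of the 6 arrays alone. Of 12 proximal tubule markers, 10 lay under the lower quartile in both cultures. In limma's test 0 of the 12 were called, and their differences ran from -0.24 to 0.24. Counted by unadjusted p under 0.05, 0 of these 12 passed.

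Genes of the interferon response rose almost without exception. Interferons signal through STAT and IRF factors to promoters that carry the interferon-stimulated response element (ISRE), and their targets include antiviral proteins and the antigen-processing machinery. Of 19 measured genes, 18 were higher and 1 was lower in the 600 culture, with a median difference of 0.92. To show where the element lies, the promoters of RefSeq genes (assembly GRCr8, 250 bases before to 50 after each start) were searched for GAAANNGAAA on either strand. The motif was chosen after the values had been seen, and its share is a description. It was found in 9 of the 14 interferon genes with a promoter in the table (64.3%), in 408 of 11962 measured genes (3.4%) and in 1034 of all 27457 promoters (3.8%). The stretches around the match are given here for the 9 genes, 5′ to 3′ along each gene's strand, with the match in capitals.
Irf7 (chr1:205800063-205800112, minus strand): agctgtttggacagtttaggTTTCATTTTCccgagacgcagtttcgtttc
Ifit3 (chr1:241527262-241527311, plus strand): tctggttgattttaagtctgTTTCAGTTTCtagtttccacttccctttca
Oas1a (chr12:41330405-41330460, plus strand): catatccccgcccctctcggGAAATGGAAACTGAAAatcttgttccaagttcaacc
Cxcl10 (chr14:15988816-15988852, plus strand): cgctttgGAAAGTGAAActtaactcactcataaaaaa
Rsad2 (chr6:48788238-48788287, minus strand): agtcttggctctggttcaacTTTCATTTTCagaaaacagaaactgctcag
Tap1 (chr20:4668635-4668684, minus strand): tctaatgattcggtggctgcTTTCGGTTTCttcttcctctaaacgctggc
Psmb8 (chr20:4657006-4657055, minus strand): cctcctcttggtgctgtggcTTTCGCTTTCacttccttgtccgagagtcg
Ifih1 (chr3:67683998-67684047, minus strand): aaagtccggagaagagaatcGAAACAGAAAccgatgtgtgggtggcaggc
Gbp2 (chr2:234005676-234005725, plus strand): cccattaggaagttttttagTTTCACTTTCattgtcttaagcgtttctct

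Seen from the start site (position 1, with no position 0), the first base of the match lay at -44 in Ifit3, -41 in Oas1a, -69 in Irf7, -59 in Ifih1, -31 in Gbp2 and -4 in Psmb8, and further upstream at -121 in Tap1, -147 in Rsad2 and -243 in Cxcl10. Oas1a held 2 overlapping matches. The list's only falling member, Gbp2, carried a match, while Mx1, Stat2, Irf1, Irf9 and Psmb9, which rose, carried none in the window. The sequence alone thus did not separate the members that rose from the member that fell. Among all genes called higher with a promoter, 66 of 1336 (4.9%) held the motif, and among those called lower 37 of 1425 (2.6%).

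The antiviral GTPase gene Mx1 read 3.39, 3.09 and 2.44 in the 300 culture and 6.36, 5.98 and 6.08 in the 600 culture, a difference of 3.17 ± 0.24 (adjusted p = 1.78e-07). Irf7, a master transcription factor of the pathway, went from 3.23, 2.55 and 2.73 to 5.41, 5.26 and 5.32 (2.49 ± 0.17). Isg15, a ubiquitin-like protein, went from 4.98, 4.87 and 4.98 to 6.32, 6.35 and 6.33 (1.39 ± 0.06). In all 3 genes the lowest array of the 600 culture lay more than 1 log unit above the highest of the 300 culture. The RNA-binding effector genes Ifit1, Ifit3 and Ifit2 rose by 2.14 ± 0.23, 1.63 ± 0.23 and 0.74 ± 0.06, Mx2 by 2.04 ± 0.12, Oas1a, a sensor of double-stranded RNA, by 1.41 ± 0.09, and the chemokine gene Cxcl10 by 1.54 ± 0.11. The signalling genes Stat2 (0.31), Irf1 (0.53) and Irf9 (0.78) and the antigen-processing genes Tap1 (0.77), Psmb8 (0.50) and Psmb9 (0.60) rose less. Gbp2, a guanylate-binding protein gene, fell from 6.25, 6.27 and 6.29 to 5.55, 5.57 and 5.63 (-0.69 ± 0.08).

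Inflammatory genes driven by NF-kB went the opposite way. NF-kB is held in the cytosol by inhibitors such as the product of Nfkbia and, once released, turns on cytokine, chemokine and adhesion genes. Of 12 measured genes, 11 were lower in the 600 culture and 0 were higher, with a median of -1.003. Tnf, the cytokine tumour necrosis factor, read 5.45, 5.72 and 5.67 in the 300 culture and 3.81, 4.09 and 3.83 in the 600 culture (-1.71 ± 0.08, adjusted p = 9.65e-10). Cxcl1, a neutrophil chemokine, fell from 7.78, 7.81 and 7.70 to 5.28, 5.26 and 4.96 (-2.59 ± 0.07), and Il6 by 1.29 ± 0.06. The smaller falls were in Icam1, an adhesion molecule for leukocytes (-0.72), the pathway's own genes Nfkb2 (-0.66) and Nfkbia (-0.60), and Ccl2 (-0.33). Ccl20, a chemokine gene, was not called (-0.03 ± 0.08). Over the chemokine genes by symbol, 15 of 32 were lower and 3 were higher, and over the interleukins and their receptors 19 of 65 were lower and 7 were higher.

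Leukocyte markers fell beside these genes. Of 15 markers, 14 were lower, 0 were higher and 1 was not called, with a median of -1.20. The complement genes of macrophages C1qa (6.02, 6.05 and 6.17 to 3.48, 3.79 and 3.62), C1qb (-1.96) and C1qc (-2.45) fell most, and the macrophage gene Cd68 (-1.40), the receptor adaptor genes Tyrobp (-1.45) and Fcer1g (-1.44) and Aif1 (-1.21) fell as well. Ptprc, the common leukocyte antigen, read 4.69 ± 0.12 and 4.50 ± 0.07 and was not called. The mean level of the 15 markers per array was 5.80 to 5.88 in the 300 culture and 4.60 to 4.70 in the 600 culture, with 0 markers under the lower quartile in both. The part of leukocytes in the fall of the NF-kB genes was not tested.

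Genes of MHC class II, which present peptides on antigen-presenting cells, were lower in all 9 of 9 measured members, with a median of -1.24. RT1-DMb, whose product helps load the peptides, fell from 4.90, 5.11 and 5.39 to 2.89, 3.19 and 3.01 (-2.10 ± 0.17), and Cd74, the invariant chain, by 1.04 ± 0.08. The smallest fall was in Ciita, the activator of the group (-0.58, adjusted p = 0.022), which was not called in the fit of the 6 arrays alone (adjusted p = 0.0942) or without the second or the third array of either culture (0.0558 to 0.101).

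**Figure D3:**
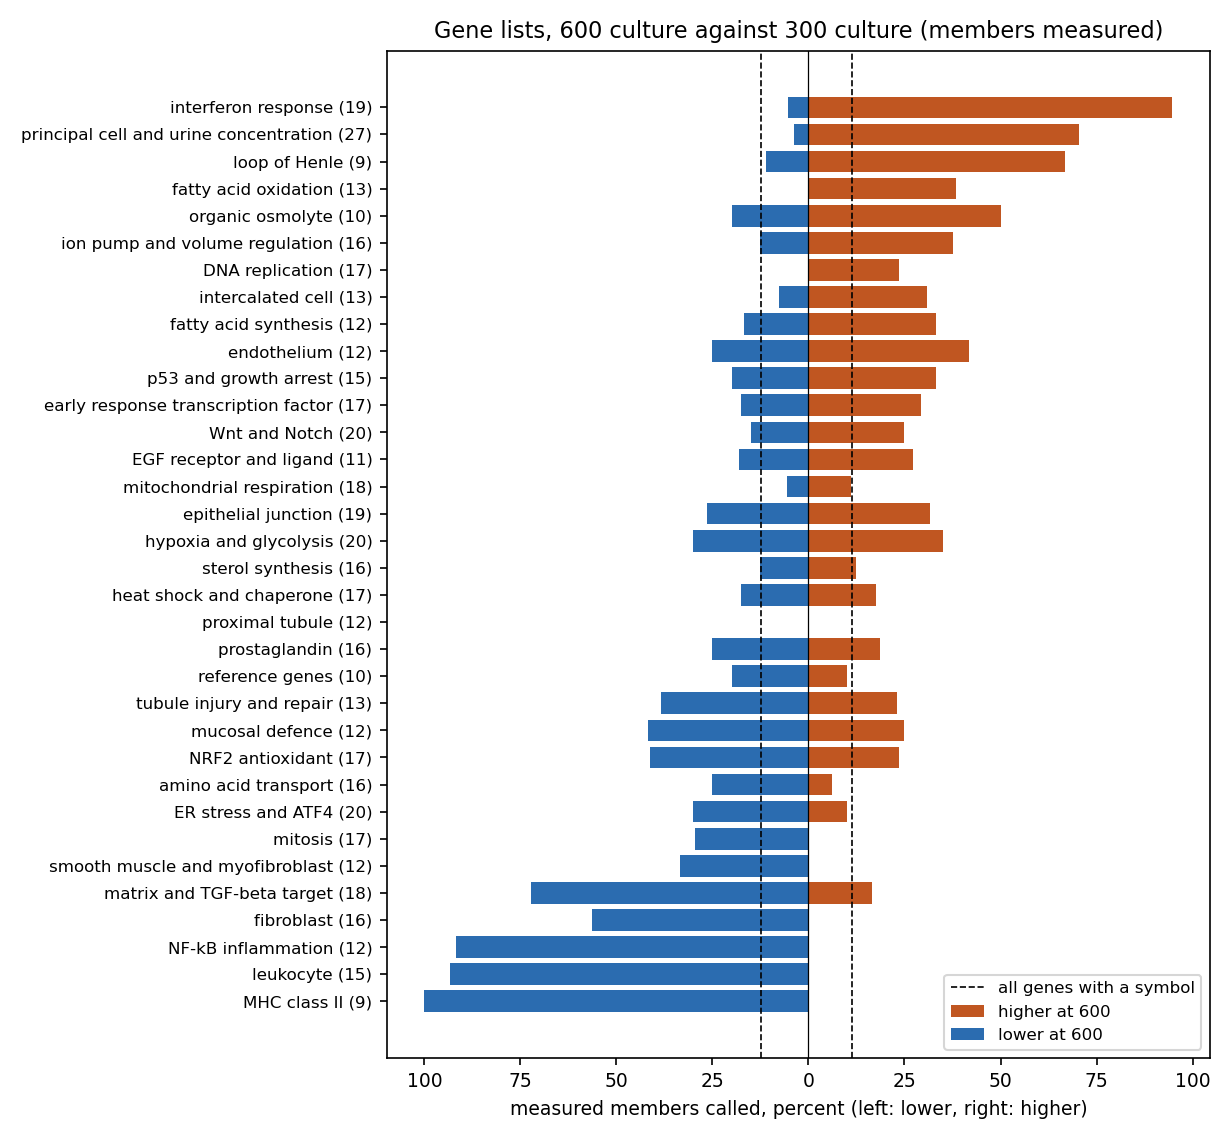
Percent of the measured members of each gene list that were higher (orange, right) or lower (blue, left) in the 600 culture, with the number of measured members in brackets. The dashed lines mark the shares over all genes with a symbol, 11.3% higher and 12.3% lower. The interferon list has 18 of 19 members higher, and the MHC class II list has 9 of 9 lower.

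Connective tissue markers and the matrix fell less. Of 16 fibroblast markers, 9 were lower and 0 were higher, with a median of -0.30. Periostin (Postn), a matrix protein of activated fibroblasts, read 6.59, 6.57 and 6.59 in the 300 culture and 4.06, 4.06 and 4.09 in the 600 culture (-2.52 ± 0.06, adjusted p = 1.14e-12), far apart from the rest of the list. The intermediate filament gene Vim (-0.36 ± 0.05) and the surface antigen gene Thy1 (-0.56 ± 0.08) fell, from 8.43 and 7.22, while Col3a1 was not called (0.15 ± 0.07). Of 12 smooth muscle markers, 4 were lower, among them Cnn1 (-0.61 ± 0.15) and Tagln (-0.51 ± 0.09), and Acta2, smooth muscle actin, was not called (8.54 to 8.52). Vim, Thy1 and Acta2, members of the fibroblast and smooth muscle lists, thus lay far above the lower quartile in both cultures. Which cells expressed them was not tested.

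The endothelial list split. Of 12 markers, 5 were higher, 3 were lower and 4 were not called. Plvap, a protein of vessel fenestrae, went from 4.92 ± 0.03 to 6.53 ± 0.12 (1.61 ± 0.10), and Emcn (0.89 ± 0.06) and the angiopoietin receptor gene Tek (0.51 ± 0.05) rose. The defining adhesion gene Pecam1 was level (6.44 and 6.45, adjusted p = 0.92). Cdh5, the endothelial cadherin, was lower by -0.56 ± 0.14, and not called without the second array of the 600 culture (adjusted p = 0.0553).

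Of 18 genes of the matrix and of TGF-beta signalling, 13 were lower and 3 were higher, with a median of -0.41. The gelatinase genes Mmp9 (6.16, 6.12 and 5.98 to 3.30, 3.68 and 3.58) and Mmp2 (-0.93 ± 0.07) fell, as did Tgfbi (-1.38 ± 0.11), the fibronectin receptor gene Itga5 (-0.67 ± 0.09), Fn1 itself (-0.44 ± 0.07) and Tgfb2 (-0.79 ± 0.06). Against these, Timp3, an inhibitor of matrix proteases, rose by 1.51 ± 0.07, the collagenase gene Mmp13 by 1.39 ± 0.10 and Tgfb3 by 0.50 ± 0.08. Over all collagen chains 9 of 25 were lower and 2 were higher, and both higher chains belong to the mature basement membrane of tubule and glomerulus: Col4a3 (2.10 to 4.10) and Col4a4 (3.19 to 5.14). Of 53 metalloproteinase genes by symbol 14 were lower and 5 higher, or 3 higher whichever array of the 300 culture was left out. Of 24 integrins 7 were lower, led by Itgb3 (-1.83), and 2 were higher.

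The osmolyte genes were higher in part. Of 10 measured, 5 were higher, 2 were lower and 3 were not called, with a median of 0.24. Aldose reductase (Akr1b1), which makes sorbitol from glucose, read 7.04, 7.20 and 7.33 in the 300 culture and 8.53, 8.52 and 8.46 in the 600 culture, a difference of 1.32 ± 0.06 (adjusted p = 8.71e-10). Its dimmer second feature differed by 1.62 ± 0.23. The myo-inositol transporter gene Slc5a3 went from 4.74, 4.66 and 4.68 to 6.06, 5.95 and 5.87 (1.27 ± 0.06), and Chdh, which makes the precursor of betaine, rose by 1.04 ± 0.10. In each of these 3 genes the cultures were separated by more than the spread of their arrays.

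Gdpd5, a phosphodiesterase that breaks down the osmolyte glycerophosphocholine, fell from 4.20, 4.03 and 4.06 to 2.94, 3.02 and 2.76 (-1.20 ± 0.10, adjusted p = 6.31e-07). Isyna1, which synthesizes inositol (0.31), and the amino acid transporter gene Slc38a2 (0.19) were the other 2 higher members, but neither was called in the fit of the 6 arrays alone, which left 3 (adjusted p = 0.0507 and 0.0786). Isyna1 was also not called without the third array of either culture, and Slc38a2 without the third of the 300 culture. Slc6a6, the taurine transporter gene, was the second lower member (-0.27 ± 0.08, adjusted p = 0.036). Only Gdpd5 remained with quantile normalization, in the fit of the 6 arrays alone, and without the first or the third array of either culture. Nfat5 itself read 4.37 ± 0.13 and 4.67 ± 0.14 and was not called (adjusted p = 0.11). The betaine transporter gene Slc6a12 was not measured here.

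The promoter motif of NFAT5, the tonicity-responsive enhancer (TonE), was searched in the same promoters and described without a test. It was present in 55 of 1336 promoters of genes called higher (4.1%), in 68 of 1425 of genes called lower (4.8%) and in 528 of 11962 measured genes (4.4%). The cyclic AMP response element TGACGTCA was present in 2.0%, 2.5% and 2.5% of the same groups, and the AP-1 site TGANTCA in 6.7%, 6.6% and 6.2%. These shares lay close together in all 3 groups. Among the small lists, TonE lay in 3 of 10 NF-kB promoters and 2 of 14 interferon promoters. It lay in 1 of 16 principal cell promoters and 0 of 11 early response promoters. In the same order the cyclic AMP element lay in 1, 0, 0 and 3 promoters, and the AP-1 site in 2, 3, 2 and 0. Of 7 osmolyte genes with a promoter, 1 held TonE, and it was Slc6a6, which was called lower, though not in every setting. Akr1b1 was not among these 7, and sequence outside the promoter windows was not searched.

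Genes of ion pumps and volume regulation had 6 of 16 measured members higher and 2 lower, with a median of 0.07. Fxyd2, the gamma subunit of the sodium pump, went from 4.08, 3.83 and 3.90 to 5.73, 5.52 and 5.49 (1.65 ± 0.10, adjusted p = 1.04e-08), and the kinase genes Wnk4 (0.95 ± 0.12) and Stk39 (0.67 ± 0.07), which act on cation chloride cotransporters, rose. The 3 further rises, in Atp1b1, Atp1b3 and Oxsr1, were small (0.16, 0.16 and 0.14), and the count was 3 without the second or the third array of the 300 culture or the second of the 600 culture. The 2 lower members, Fxyd5 (-0.21) and Slc12a7 (-0.23), became 1 without the second or the third array of the 300 culture or the first or the third of the 600 culture, and 0 in the fit of the 6 arrays alone. Of 17 chaperone genes, 3 were higher and 3 lower. Hspa4l, a tonicity-induced member of the Hsp110 group, rose by 0.73 ± 0.05, its relative Hsph1 by 0.63 ± 0.05 and Hspa2 by 1.14 ± 0.18, while Hspa8 (9.05 and 9.03) and both Hsp90 genes of the cytosol were not called.

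Prostaglandins are made in the collecting duct by 2 cyclooxygenases and dampen the action of vasopressin. The constitutive enzyme gene Ptgs1 read 5.44, 5.44 and 5.53 in the 300 culture and 7.07, 7.06 and 7.08 in the 600 culture (1.60 ± 0.06, adjusted p = 8.61e-11). The inducible enzyme gene Ptgs2 went the other way, from 3.84, 3.62 and 4.07 to 3.37, 3.32 and 3.22 (-0.54 ± 0.11, adjusted p = 0.00211). The synthase gene Ptges fell by 1.16 ± 0.13, the export pump gene Abcc4 rose by 0.95 ± 0.05 and the receptor gene Ptger3 by 0.51 ± 0.10. Over the 16 genes 3 were higher and 4 lower, and the 4 were 2 without the second or the third array of the 300 culture or the first or second of the 600 culture.

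Junction, injury and mucosal genes each moved in both directions. Of 19 junction genes, 6 were higher and 5 lower: Cldn8, a claudin of the distal nephron and collecting duct, rose by 1.31 ± 0.07 and the splicing factor gene Esrp2 by 0.61 ± 0.11, while Krt8 and Krt18 were lower by -0.29 ± 0.05 and -0.34 ± 0.05. The 5 lower members were 3 without the first array of the 300 culture or the third of the 600 culture. Of 13 genes of tubule injury, 5 fell, with the basal keratin gene Krt14 (-2.11 ± 0.09) and the siderophore-binding gene Lcn2 (-0.82 ± 0.05) among them, and 3 rose, including Havcr1, the kidney injury molecule (0.68 ± 0.15), and osteopontin (Spp1, 0.62 ± 0.04). Of 12 mucosal defence genes, 3 rose and 5 fell. Muc1, a membrane mucin, rose from 4.64, 4.50 and 4.56 to 6.73, 6.59 and 6.59 and the defensin gene Defb1 by 1.86 ± 0.13, whereas the protease inhibitor gene Slpi (-2.30 ± 0.19), the complement gene C3 (-1.34 ± 0.06) and the antibody transporter gene Pigr (-1.31 ± 0.13) fell.

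Cell division genes had small median differences between the cultures. Of 17 DNA replication genes, 4 were higher and 0 lower, with a median of 0.14, and the proliferating cell nuclear antigen gene Pcna rose from 5.84, 5.89 and 5.98 to 6.33, 6.27 and 6.12 (0.34 ± 0.08). The 4 were 1 without the second array of the 300 culture or the first of the 600 culture and 2 without the third of the 300 culture or the second of the 600 culture. Of 17 mitosis genes, 5 were lower and 0 higher, with a median of -0.28, and Tpx2, a spindle protein, fell by 0.32 ± 0.06. That count was 2 without the second array of either culture, 1 without the third of the 300 culture, 3 without the first or the third of the 600 culture, 9 in the fit of the 6 arrays alone, and 8 with dim features left out or with the mean of a gene's features. Top2a, the topoisomerase of dividing cells, read 5.01 ± 0.09 and 5.14 ± 0.09 and was not called (adjusted p = 0.71).

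Metabolic and signalling lists mostly split. Fatty acid oxidation was the list of this kind with rises only: 5 of 13 measured genes were higher and 0 lower, among them Acadm, a dehydrogenase of medium chains (0.48 ± 0.05), and Cpt1a, the gate of mitochondrial import (0.35 ± 0.06). Of 12 fatty acid synthesis genes 4 were higher, led by Thrsp (1.02) and the elongase gene Elovl6 (0.92), and 2 were lower, led by the desaturase gene Fads1 (-1.05). Of 20 hypoxia and glycolysis genes 7 were higher and 6 lower: the glycolytic regulator gene Pfkfb3 rose by 0.66 and Hk1 by 0.54, while the vascular growth factor gene Vegfa (-0.85) and the vasodilator gene Adm (-1.26) fell. Of 17 antioxidant genes 4 were higher and 7 lower, or 4 lower without the first or second array of the 300 culture or the first of the 600 culture. In that list the mitochondrial dismutase gene Sod2 fell by 1.02 and the cystine transporter gene Slc7a11 by 0.63, and Nqo1 rose by 0.44.

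Of 20 genes of endoplasmic reticulum stress 2 were higher and 6 lower, with Trib3 lowest (-0.78). Of 16 amino acid transporter genes 1 was higher and 4 were lower, with the glutamate transporter gene Slc1a3 lowest (-1.69). Among 20 Wnt and Notch genes 5 were higher, led by Wnt9b (1.81), a ligand made by the duct in the developing kidney, and the Notch ligand gene Jag2 (1.35). The 3 lower ones were 1 without the first array of the 600 culture. Among 11 genes of the EGF receptor family and its ligands 3 were higher and 2 lower, with the ligand genes Btc (0.91) and Nrg1 (-1.17) at the ends. In the lists of p53 targets and growth arrest (5 of 15 higher, 3 lower), early response factors (5 of 17 higher, 3 lower), sterol synthesis (2 of 16 higher, 2 lower) and mitochondrial respiration (2 of 18 higher, 1 lower), counts moved by more than 1.5 times when single arrays were left out. Higher p53 targets were 2 without the second array of the 600 culture, and 3 without the third of that culture or the second or the third of the 300 culture. Higher early response factors were 2 without the first array of the 300 culture, and 3 without the third of that culture or the first or the third of the 600 culture, while lower ones were 1 without the second array of the 300 culture or the third of the 600 culture. Higher sterol genes were 0 without the first array of the 300 culture, and 1 without the second or the third array of either culture. The lower respiration gene was not called without the first or the second array of the 300 culture or the third of the 600 culture. Of 10 genes often used as reference 1 was higher and 2 lower: Gapdh (-0.02) and Actb (-0.09) were not called, whereas Hprt1 fell by 0.90 and the transferrin receptor gene Tfrc by 0.55.

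The 600 culture was then set against the 600 challenge, where the osmolality at harvest was the same. Both contrasts share the arrays of the 600 culture. Of the 28328 features, 4655 (16.4%) differed, with 2476 (8.74%) higher and 2179 (7.69%) lower in the 600 culture, and 388 and 202 of them by at least 1 log unit. By gene, 1799 of 14499 (12.4%) were higher and 1460 (10.1%) lower. In the fit of these 6 arrays alone the counts were 3071 in all and 1303 lower.

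Principal cell genes were higher in the 600 culture than in the challenge too. Of 27, 19 were higher and 1 lower, with a median of 0.56. Aqp2 read 2.28 ± 0.26 in the challenge against 6.50 ± 0.30 in the 600 culture (4.21 ± 0.14, adjusted p = 5.48e-11), Avpr2 3.42 ± 0.28 against 5.68 ± 0.08, and Slc14a2 3.17 ± 0.07 against 5.77 ± 0.23. The lower member, Adcy6 (-0.21), was not called without the first array of the 600 culture or the first or second of the challenge, which left 0. Lypd2 (3.69), Fxyd4 (3.49), Alox15b (3.05), Elf5 (2.87), Aqp3 (2.82), Klhdc8a (2.78), Serpina3n (2.73), Aqp4 (2.72) and Irf7 (2.70) were the further genes with the largest excess over the challenge. Loop of Henle markers were higher in 6 of 9 members.

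Interferon genes were higher in 18 of 19 members against the challenge, with a median of 1.25, and Gbp2 was again the lower one (-0.64). NF-kB genes were lower in all 12 of 12, with a median of -0.61, and Cxcl6 (-4.24), Cxcl2 (-3.30), Csf3 (-3.11), Cxcl1 (-2.90) and Olfm4 (-5.20) were among the 10 largest deficits. In this contrast the leukocyte markers did not move as a group: 4 were higher, 4 lower and the median was 0.04, and the 4 higher were 2 without the third array of either group. C1qa read 3.61 ± 0.12 in the challenge and 3.63 ± 0.16 in the 600 culture, while Tnf read 5.98 to 6.01 and 3.81 to 4.09. MHC class II genes were lower in 3 of 9.

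Cell division and smooth muscle genes, whose list medians between the cultures ran from -0.28 to 0.14, were mostly higher in the 600 culture than in the challenge. Of 17 mitosis genes 16 were higher and 0 lower (median 0.58), and of 17 DNA replication genes 12 were higher and 0 lower (median 0.53). Top2a read 3.68 ± 0.08 in the challenge and 5.14 ± 0.09 in the 600 culture. Of 12 smooth muscle genes 10 were higher (median 0.99), led by Cnn1 (3.02 ± 0.23 against 5.12 ± 0.06), and 2 were lower, or 1 without the second or the third array of the 600 culture or the first or the third of the challenge. Fibroblast markers were higher in 6 of 16 and endothelial markers in 8 of 12.

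The osmolyte genes had 2 of 10 members higher and 5 lower in the 600 culture than in the challenge. Akr1b1 was lower by -0.39 ± 0.06 and Slc6a6 by -0.62 ± 0.08, Gdpd5 by -1.01 ± 0.10, while Slc5a3 was higher by 0.29 ± 0.06 and Chdh by 0.95 ± 0.10. Hspa4l was lower by -0.65 ± 0.05 and Fxyd2 did not differ past the threshold (0.10 ± 0.10, adjusted p = 0.57). Ptgs2 was lower by -2.54 ± 0.11 (5.84 ± 0.06 in the challenge against 3.30 ± 0.08), whereas Ptgs1 was higher by 1.44 ± 0.06. Slc26a4 was lower by -2.51 ± 0.06 and read 6.12 ± 0.08 in the challenge. Other large deficits were in Dlgap5l2 (-3.72), Or2a25 (-3.18) and the chloride channel regulator gene Clca4l (-3.18).

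**Figure D4:**
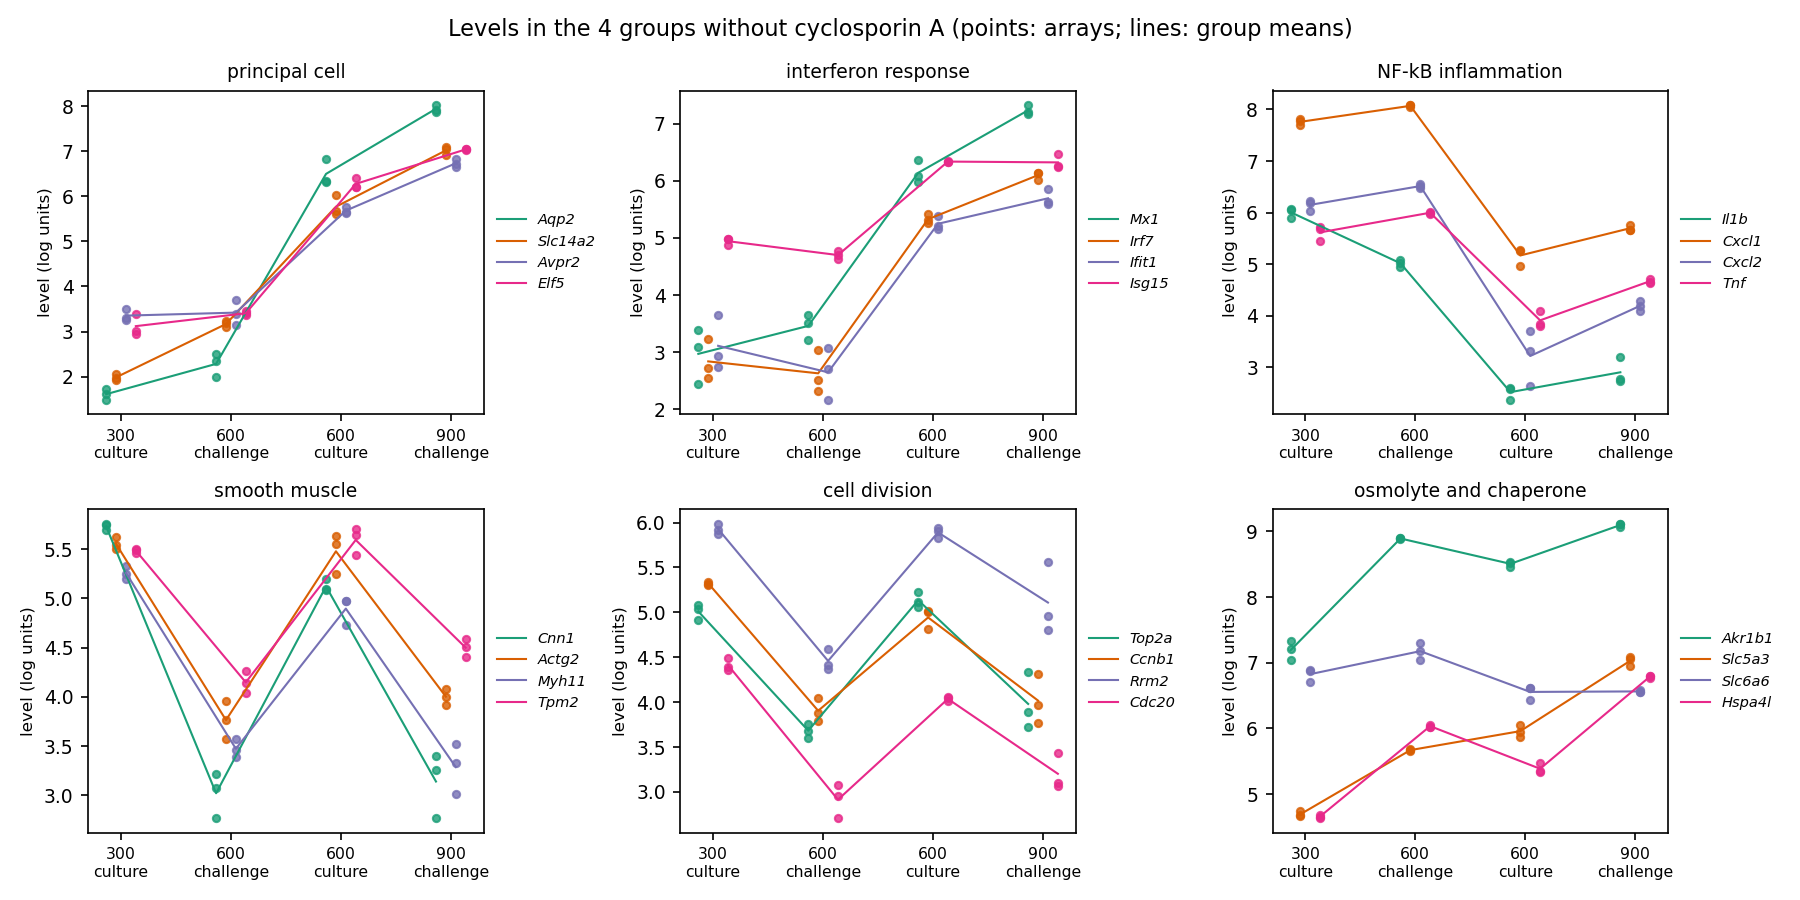
Levels in log units of unstated base (y axes) of 4 genes from each of 6 groups in the 300 culture, the 600 challenge, the 600 culture and the 900 challenge (x axes), with 1 point per array and lines through the group means. Principal cell genes were low in the 300 culture and the 600 challenge and high in the 600 culture, where Aqp2 averaged 6.50. Smooth muscle and cell division genes were lowest in the challenged groups, with Top2a at 3.68 in the 600 challenge and 3.98 in the 900 challenge.

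Across the 4 groups without cyclosporin A, levels are given as a description. Aqp2 stood at 1.61 ± 0.12 in the 300 culture, 2.28 ± 0.26 in the 600 challenge, 6.50 ± 0.30 in the 600 culture and 7.94 ± 0.07 in the 900 challenge. The readings of the 300 culture and the 600 challenge all lay under the lower quartile, so their order is not read, and the arrays of the 600 culture and the 900 challenge did not overlap. Mx1 stood at 2.97 ± 0.49, 3.46 ± 0.23, 6.14 ± 0.19 and 7.24 ± 0.08, where the 300 culture and the 600 challenge overlapped. Tnf was lowest in the 600 culture (3.91 ± 0.16) and next in the 900 challenge (4.67 ± 0.05), and highest in the 600 challenge. Akr1b1 was lowest in the 300 culture (7.19 ± 0.15) and stood at 8.51 ± 0.04 in the 600 culture, 8.89 ± 0.01 in the 600 challenge and 9.10 ± 0.03 in the 900 challenge.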

How the data were processed

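RNA of primary cultures was labelled with Affymetrix whole-transcript reagents and measured on 18 1-colour arrays, per the labels' protocols. The deposited values are 1 number per feature and array from 0 to 9.504 on a log scale. The authors' background correction, normalization and log base are not given in the sources used here. The highest value is an intensity of 726 with base 2 and 13413 with a natural log. Array number limits precision.

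Values were fitted as deposited with limma 3.58.1 (R 4.3.3), 1 mean per group over 18 arrays (12 residual degrees of freedom), Benjamini-Hochberg adjusted over 28328 features. Of these, 15295 had 1 gene symbol, 322 several and 12711 none. The 15 largest called rises and falls (10 against the challenge) with non-overlapping groups were named, up to 5 each way per symbol family, and members of 34 lists, each by its brightest feature. The largest changes were taken among features with exactly 1 symbol. Placeholder (such as LOC and RGD), olfactory (only those starting with Olr), vomeronasal and small RNA symbols were passed over. Or2a25, named for an olfactory receptor, starts otherwise and was kept. Members and lists were chosen with earlier results of these data known. Alternatives were centring, quantile normalization, the 6 arrays alone, a replicate block, dim features left out, an intensity trend, the mean of a gene's features, and leaving out each array. The mean of a gene's features was applied only to list and family counts between the cultures. The test was checked on simulated data. Replicate numbers were not used to pair the samples in the main fit.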

Additional observations from a re-analysis of the deposited data

How the results depend on the processing

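Over all alternatives applied to single features, 0 of the named or listed genes that were called reversed direction. The 30 largest differences between the cultures and the 20 from the challenge were called in every such setting, as were 305 of 410 other called genes in the first contrast and 277 of 355 in the second. The 30 and the 20 were chosen from the same arrays as the largest called differences, so their kept calls are no independent check. Leaving out 1 array gave 3976 to 4128 called features between the cultures and 3798 to 3966 against the challenge. Fitting only the 6 arrays compared gave 3626 between the cultures and, against the challenge, 3071 in all and 1303 lower. Replicate numbers in the titles gave no sign of pairing: deviations of same-numbered arrays correlated between -0.001 and 0.031 for the cultures and between -0.034 and 0.018 for the challenge. These correlations cannot show whether same-numbered arrays came from the same rat or preparation. With the replicate block 4727 features were called between the cultures and 4545 against the challenge. Signal over background limits dim features, of which few were called, and some large rises, such as that of Aqp2, start from readings under the lower quartile. With 3 arrays against 3 an exact permutation test of 1 gene cannot go below p = 0.1, so calls rest on limma's pooled spread.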

Other observations

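Families were also grouped by symbol, and their counts are read against the shares over all genes, 11.3% higher and 12.3% lower. Of 16 S100 genes, which encode small calcium-binding proteins, 6 were higher and 3 lower in the 600 culture: S100g, the vitamin D-dependent calbindin of small size, rose by 1.80, S100a4 by 1.55 and S100a1 by 1.51, while S100a8 and S100a9, which neutrophils and monocytes release, fell by 2.09 and 1.77. Of 69 cytochrome P450 genes 6 were higher and 5 lower, under those shares, with Cyp27b1, which activates vitamin D, up by 1.70 and Cyp7b1, an oxysterol hydroxylase, down by 1.95. Car12, a membrane carbonic anhydrase, went from 3.01 to 5.06, and Car3 rose by 0.65. Of 11 aquaporins 4 were higher and 1 lower, the lower being Aqp9 (-0.92), a channel that also passes glycerol.

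Of 315 solute carrier genes 46 were higher and 48 lower, near the same shares over all genes, 11.3% and 12.3%. After Slc14a2 and Slc45a3, the largest rises were in Slc4a11 (2.17), of the bicarbonate transporter family, and the choline transporter gene Slc5a7 (2.09). After Slc26a4, the largest falls were in the arginine transporter gene Slc7a2 (-1.85) and the amino acid transporter gene Slc6a14 (-1.84). Of 83 potassium channel subunits 6 were higher and 8 lower, again under those shares, with Kcnj16, a basolateral channel of the distal nephron, up by 1.77 and Kcnq1 by 1.29. Of 22 genes of the homeobox clusters 4 were higher, all from the B and D clusters, and 4 lower, with Hoxb7 up by 0.87 and Hoxa5 down by 0.43.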
